A study of Mus musculus with 34 samples.

Results

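Liver was compared with 7 other adult tissues of the mouse by the methylation of its CpG islands, through the 2 arrays labelled liver and the 14 arrays of brain, colon, kidney, lung, muscle, pancreas and spleen, out of 34 arrays in the series. Each adult array held DNA of C57Bl/6 mice aged 3 months that had been enriched with an antibody to 5-methylcytidine (methylated DNA immunoprecipitation, mDIP), hybridised in Cy5 against unenriched input DNA in Cy3. Liver 1 (the array labelled liver, replicate 1) came from a female and liver 2 from a male. The replicate 1 arrays of brain, kidney, lung, muscle and spleen were also from females, their replicate 2 arrays from males apart from lung 2, which was from a female, and both arrays of colon and of pancreas were from males. No treatment or genetic change is named for any of these groups. Whether a sample was 1 animal or a pool is not given in the sources used here.

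CpG islands are short stretches rich in the dinucleotide CG, many of them at gene starts. Most stay free of methylation in every healthy tissue, while a minority inside genes gain or lose it according to cell lineage. Liver is made mostly of hepatocytes, whose identity is set by transcription factors such as HNF4A, FOXA and C/EBP proteins and which make plasma proteins, bile acids and glucose, beside bile duct, endothelial, stellate and immune cells. In a whole organ, a change in the share of a cell type and a change of methylation within each cell cannot be told apart.

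An island was a run of at least 3 probes with gaps of at most 500 bases, and its island methylation score (IMS) was the mean of the probes' Z-scores, the log ratio of enriched over input DNA put on a common scale within each array. An IMS below 0 was taken as unmethylated and above 0.75 as methylated. On the autosomes 13336 islands were scored, of which 11612 carried a gene name. The 2 liver arrays stood at different ends of array quality, since the input signal was well above background at 99.3% of the probes on liver 1 and 64.0% on liver 2, between 62.4% and 99.2% on the 14 others, and the log ratio was exactly 0 at 0.135% and 7.32% of the probes.

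The promoters of 4 islands are shown to let the density of CG be seen where the IMS was below 0 on all 16 adult arrays (Cebpa) or differed between the liver arrays (Igf2r, Zfp36 and Bdh1, chosen after their values were seen). Each is the stretch from 250 bases before to 50 after the gene's start in RefSeq, build GRCm38.p6, written 5′ to 3′ on the gene's strand with every CG in capitals. Cebpa is at chr7:35119043-35119342 on the plus strand with 29 CG, Igf2r at chr17:12769657-12769956 on the minus strand with 34, Zfp36 at chr7:28379179-28379478 on the minus strand with 21 and Bdh1 at chr16:31428503-31428802 on the plus strand with 17. Over 32851 promoters of this length the quartiles were 3, 7 and 20 CG. None of the 4 held, on either strand, TGTTTAC (the forkhead motif, in 3.65% of all promoters), CAAAGTCCA (HNF4, 0.475%) or TTGCGCAA (C/EBP, 0.183%).
Cebpa: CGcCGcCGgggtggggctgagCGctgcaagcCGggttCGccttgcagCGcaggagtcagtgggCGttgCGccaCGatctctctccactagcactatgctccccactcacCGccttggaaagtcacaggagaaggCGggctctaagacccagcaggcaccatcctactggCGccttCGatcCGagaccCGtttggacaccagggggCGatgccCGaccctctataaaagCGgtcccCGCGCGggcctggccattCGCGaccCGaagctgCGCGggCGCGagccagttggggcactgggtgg
Igf2r: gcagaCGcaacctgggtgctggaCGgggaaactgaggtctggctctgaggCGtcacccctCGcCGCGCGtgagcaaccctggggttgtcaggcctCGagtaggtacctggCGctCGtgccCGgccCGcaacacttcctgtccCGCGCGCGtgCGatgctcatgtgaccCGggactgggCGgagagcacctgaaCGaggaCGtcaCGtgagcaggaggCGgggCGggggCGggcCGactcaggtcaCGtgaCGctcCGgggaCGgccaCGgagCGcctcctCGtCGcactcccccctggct
Zfp36: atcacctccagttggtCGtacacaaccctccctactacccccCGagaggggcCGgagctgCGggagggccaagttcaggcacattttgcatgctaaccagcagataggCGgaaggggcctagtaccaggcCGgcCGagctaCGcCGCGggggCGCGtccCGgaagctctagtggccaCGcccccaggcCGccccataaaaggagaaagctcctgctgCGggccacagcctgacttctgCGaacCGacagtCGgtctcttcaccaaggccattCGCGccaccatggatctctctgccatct
Bdh1: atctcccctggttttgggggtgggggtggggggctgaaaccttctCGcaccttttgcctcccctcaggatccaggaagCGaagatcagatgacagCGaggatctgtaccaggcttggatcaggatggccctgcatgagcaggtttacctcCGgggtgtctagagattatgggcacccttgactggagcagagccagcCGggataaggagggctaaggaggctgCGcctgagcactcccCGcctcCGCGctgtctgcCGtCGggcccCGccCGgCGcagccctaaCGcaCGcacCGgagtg

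The 2 arrays labelled liver stood apart from the other tissues at different islands, so the comparison is given first array by array. For the 6 tissues other than colon and pancreas, each array was set against the mean of the 6 arrays of the same replicate number. Liver 1 and liver 2 then deviated at different islands, with a Pearson's r of -0.09 over all 13336 islands and -0.18 over the 1500 islands of largest variance. Liver 1 was instead most like the array labelled brain 2 (r = 0.52 and 0.73), and liver 2 most like the array labelled brain 1 (r = 0.50 and 0.79). Brain 1 and brain 2 had an r of -0.09 and -0.19. Such crossed pairs were not particular to liver and brain. Over all islands kidney 1 was nearest to spleen 2 (r = 0.68) and spleen 1 to kidney 2 (0.43). Likewise lung 1 was nearest to muscle 2 (0.53) and muscle 1 to lung 2 (0.41). The 1500 islands were picked by their variance over the same 16 adult arrays, which can raise the size of r, so they are not a second result. These correlations are across islands, whose points share the arrays, the probes and the means they are set against, and are given as a description. None of the 6 replicate 1 arrays was nearest to the replicate 2 array of its own label, 0 of 6, as also held in each of the 10 other ways of scoring the islands. In those, liver 2 was nearest to brain 1 each time, and liver 1 to brain 2 except on the log2 scale, where lung 2 was nearest at 0.51.

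**Figure D1:**
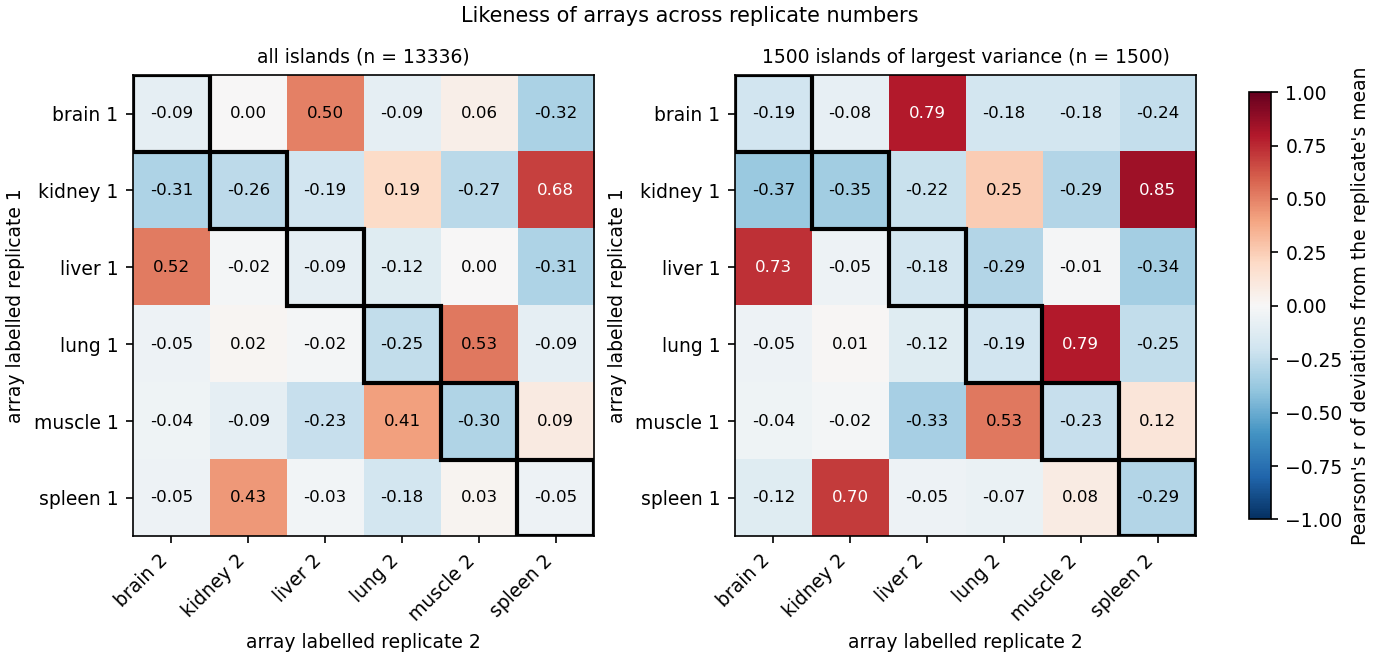
Pearson's r between the 6 replicate 1 arrays (rows) and the 6 replicate 2 arrays (columns), each as its deviation from the mean of its replicate number, over all 13336 islands (left) and the 1500 of largest variance (right); black boxes mark pairs with the same label. The boxed pair of liver lies at -0.09 and -0.18, while liver 1 with brain 2 lies at 0.52 and 0.73 and liver 2 with brain 1 at 0.50 and 0.79.

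The arrays of colon and of pancreas resembled each other within their labels. All 4 were from males and on the same grid version of the array, and the colon pair shared a scan day. In the 6 other tissues, replicate 1 was on that grid version and replicate 2 on another. Likeness by tissue and likeness by these shared conditions cannot be told apart here. As deviations from the mean of all 16 adult arrays, the pairs of colon and pancreas had an r of 0.62 and 0.23, whereas the pair of liver had -0.28 and the other 5 pairs lay between -0.39 and -0.16. On the IMS itself, where the shared pattern of methylated and unmethylated islands dominates, the pair of liver reached 0.850. Probes on the X chromosome matched the sex given for each of the 16 arrays, with 78.5% to 95.3% of them above 0 on the 7 female arrays and 46.2% to 61.9% on the 9 male arrays. Since liver and brain each have 1 female and 1 male array, this check cannot tell liver 1 from brain 1 or liver 2 from brain 2. Liver 1 was on the same slide as brain 1 and was scanned on the same day as the other 5 replicate 1 arrays, and liver 2 shared its scan day with lung 2 alone. Which of the labels are right was not tested, and no array was moved to another group. Below, liver 1 and liver 2 mean the arrays so labelled.

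**Figure D2:**
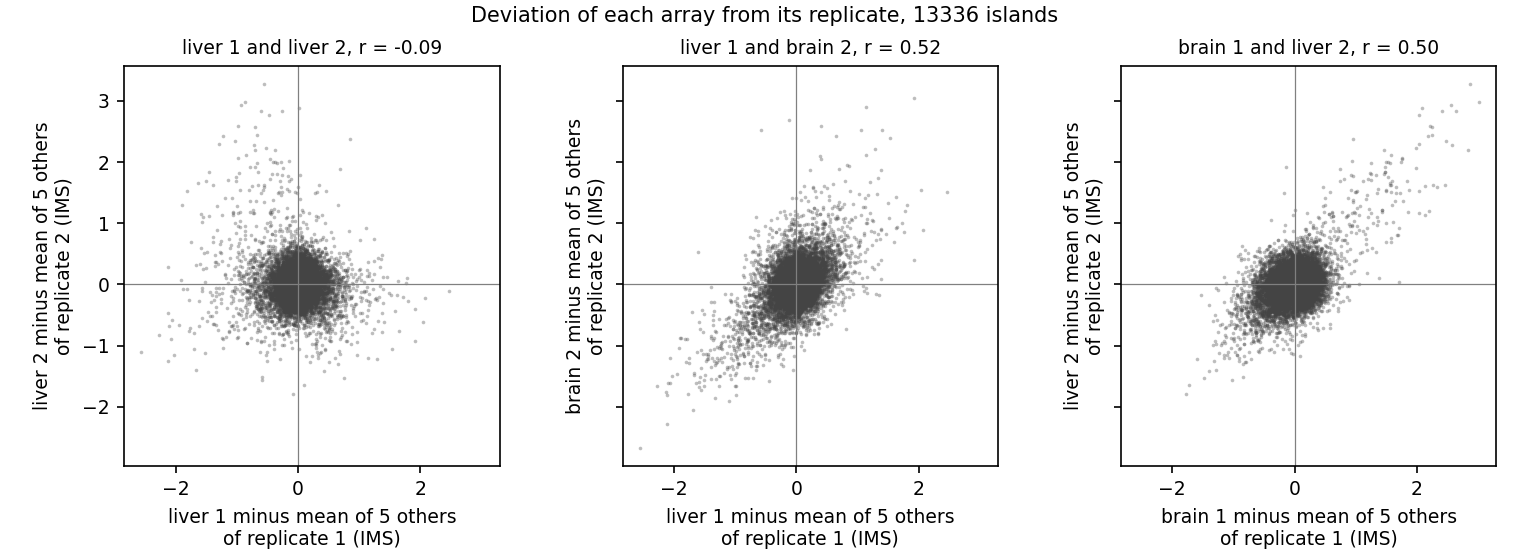
Each point is 1 of 13336 islands, placed by the IMS of an array minus the mean of the other 5 arrays of its replicate number. Liver 1 against liver 2 forms a cross (r = -0.09), and liver 1 against brain 2 (r = 0.52) and brain 1 against liver 2 (r = 0.50) run along the diagonal.

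Taken as labelled, liver had no island that was called as different from the mean of the other 7 tissues. With limma and Benjamini-Hochberg adjustment over 13336 islands, 0 islands (0%) were lower and 0 (0%) higher at an adjusted p under 0.05, and the smallest adjusted p was 0.822. At an unadjusted p under 0.05 there were 408 islands, 3.06% of those tested. A limma fit of liver against the 14 other arrays as 2 groups also called 0 islands (421 at an unadjusted p under 0.05), as did the methods' t-test (394). The same contrast called 127 higher and 9 lower islands for colon and 6 higher and 2 lower for pancreas, and 0 for brain, kidney, lung, muscle and spleen (594, 146, 529, 184 and 280 at an unadjusted p under 0.05). With 2 arrays a group, these p-values measure the spread between the arrays of a label.

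Both liver arrays lay below all 14 others at 43 islands, 0.322% of those scored, and above all 14 at 45 islands, 0.337%. For colon the same counts were 352 and 604 and for pancreas 114 and 183. The islands of liver stood apart by little, as the following cases, chosen after their values were seen, show. At an island inside Tmem121 liver 1 scored 1.81 and liver 2 scored 1.80, against a lowest value of 2.02, a median of 2.35 and a highest of 2.81 on the 14 others. At an island inside Park7, which encodes the oxidative stress protein DJ-1, the liver arrays scored -0.62 and -0.58 against -0.42, -0.14 and 0.32. Higher in liver was an island downstream of Trim7, with 2.68 and 2.46 on the liver arrays against 1.43, 2.03 and 2.29. At an island inside Nemp2 the liver arrays scored 0.40 and 0.36 against -0.46, -0.11 and 0.12. None of these 4 passed the limma test, the adjusted p being 1.0 for each.

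**Figure D3:**
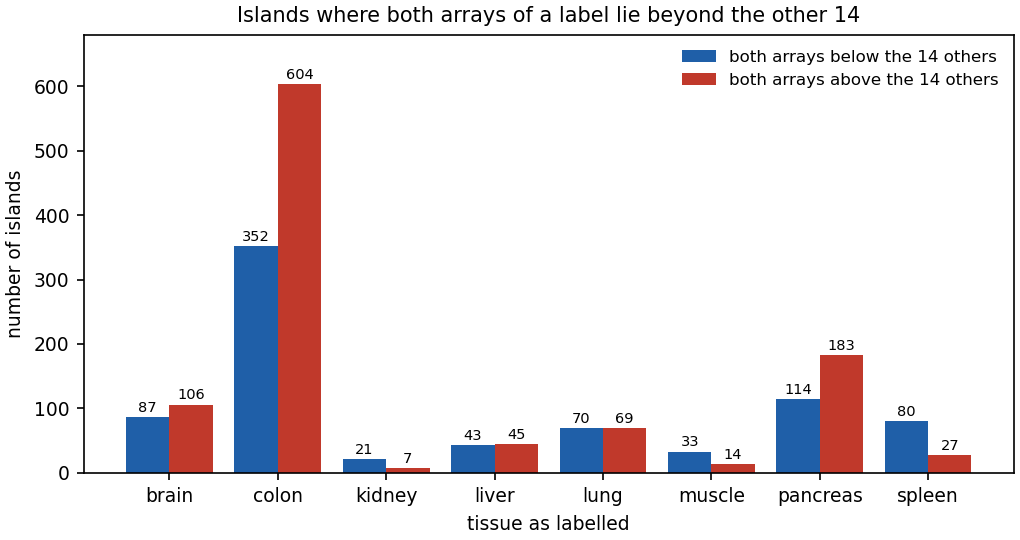
Number of islands at which both arrays of a label lay below (blue) or above (red) the other 14 adult arrays, for each tissue as labelled. Liver has 43 and 45, colon 352 and 604, and pancreas 114 and 183.

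No island was below 0 on both liver arrays and above 0.75 in every other tissue, and none was above 0.75 on both and below 0 in every other. Single arrays did cross both limits. Liver 1 was below 0 with the other 5 replicate 1 arrays above 0.75 at 10 islands (0.075%). Of the replicate 2 arrays, brain 2 was below 0 there at 7, liver 2, kidney 2 and muscle 2 at 1 each, and lung 2 and spleen 2 at 0. Liver 1 was above 0.75 with the other 5 below 0 at 15 islands (0.112%). There brain 2 was above 0.75 at 9, liver 2 at 1, and kidney 2, lung 2, muscle 2 and spleen 2 at 0. Liver 2 was above 0.75 with the other 5 replicate 2 arrays below 0 at 12 islands (0.09%). There brain 1 was above 0.75 at 9, and liver 1, kidney 1, lung 1, muscle 1 and spleen 1 at 0.

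The factors and products that define hepatocytes gave no check of the labels. Hnf4a, Alb, Apoa1 and G6pc, which encode HNF4A, albumin, apolipoprotein A-I and the catalytic subunit of glucose-6-phosphatase, had no island of 3 probes. Cebpa, which encodes C/EBPα, a factor of hepatocytes and of fat and myeloid cells, had an island of 21 probes over its promoter at chromosome 7, 34826691 to 34829475 (positions as in the files, which name no build). It was unmethylated everywhere, at -0.50 on liver 1, -0.65 on liver 2 and between -0.85 and -0.36 on the 14 others, a difference of 0.06 ± 0.11 (limma SE). Foxa3, a forkhead factor of liver and gut, had an island of 4 probes downstream of the gene at chromosome 7, 18170638 to 18171100. Liver 1 scored 0.79 there, above the highest of the 14 others at 0.50, and liver 2 scored 0.18, within their range from -0.10. The difference at Foxa3 was 0.27 ± 0.16 and did not pass the test (adjusted p = 1.0).

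At each liver array, islands were then chosen by a gap of over 0.75 to each of the other 5 arrays of the same replicate number, and read on the 6 arrays of the other number, which took no part in the choice. Liver 1 was lower at 74 islands (0.555%) and higher at 55 (0.412%), and liver 2 was lower at 10 (0.075%) and higher at 77 (0.577%). At the 74 islands low on liver 1, brain 2 was the lowest of the 6 replicate 2 arrays at 66 (89.2%, against 17.4% of all islands) and liver 2 at 3 (4.05%, against 14.4%). At the 55 islands high on liver 1, brain 2 was the highest at 46 (83.6%, against 19.4%) and liver 2 at 4 (7.27%, against 15.7%). At the 77 islands high on liver 2, brain 1 was the highest of the replicate 1 arrays at 74 (96.1%, against 26.0%) and liver 1 at 0 (against 17.0%). At the 10 islands low on liver 2, brain 1 was the lowest at 10 and liver 1 at 0. The named cases below were chosen from these sets after their values were seen, and the values on the array's own replicate number are what chose them.

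**Figure D4:**
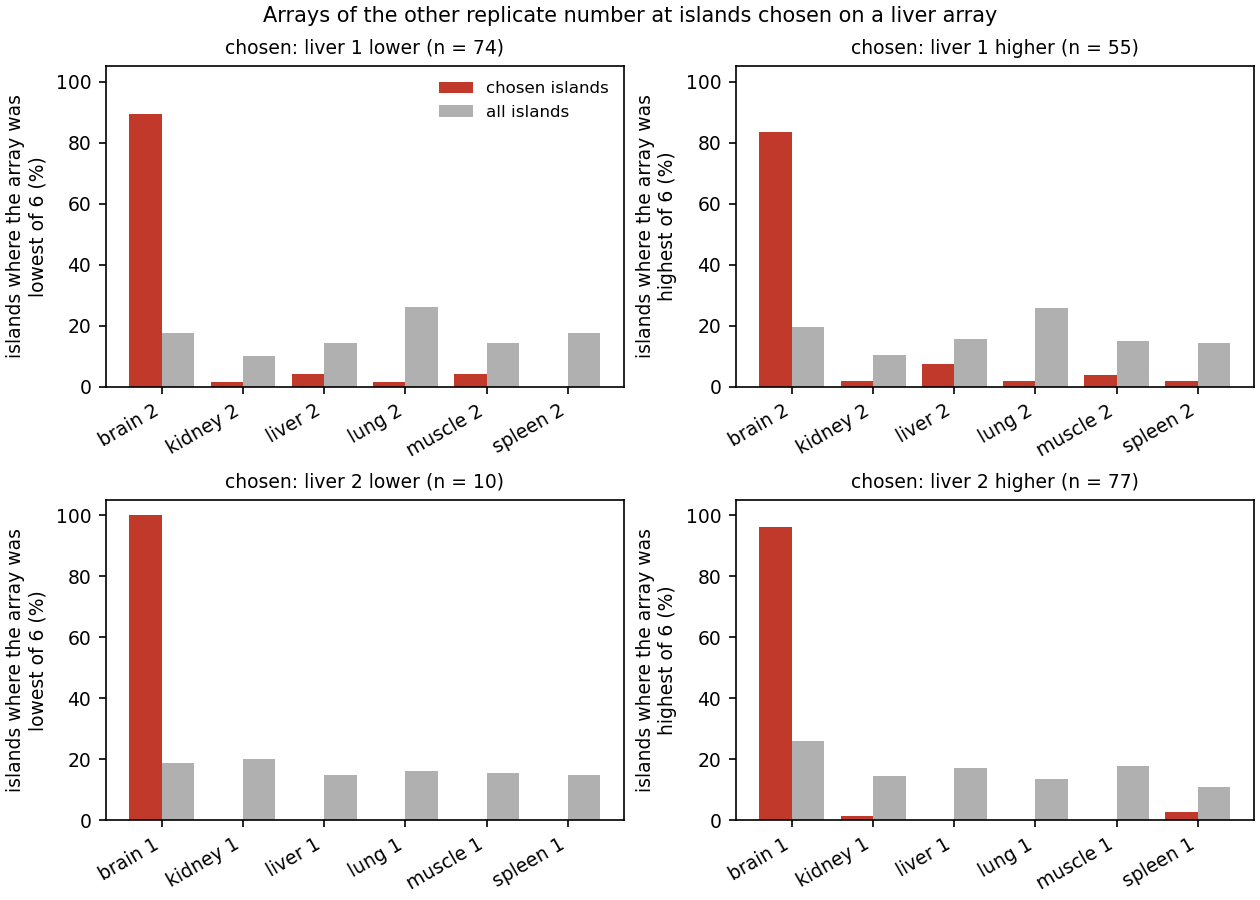
Share of the islands chosen on a liver array (red) and of all 13336 islands (grey) at which each array of the other replicate number was the lowest or highest of its 6. Brain 2 leads at 89.2% and 83.6% of the islands chosen on liver 1, and brain 1 at 100% and 96.1% of those chosen on liver 2, with both liver arrays at 7.27% or less.

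The islands low on liver 1 are described first. Igf2r, an imprinted gene whose receptor clears the growth factor IGF2, had 8 probes from -395 to 686 bases around its start (chromosome 17, 12612307 to 12613442), over the promoter printed near the opening. Liver 1 scored 0.60 and brain 2 scored 0.89 there, against 2.59 on liver 2, 2.45 on brain 1 and 2.26 to 3.15 (median 2.74) on the 12 arrays of the other 6 tissues. Liver 1 and brain 2 were below every other adult array there, though the choice itself set liver 1 below the other replicate 1 arrays. Hoxb3, which encodes a homeobox factor of the hindbrain and trunk, had 3 such islands. At the island at chromosome 11, 96160091 to 96160505, liver 1 scored -0.25 and brain 2 scored -0.48, against 1.03 on liver 2, 1.07 on brain 1 and 0.74 to 2.47 (median 1.87) on the 12 others. Hoxa5, another homeobox factor, scored -0.28 on liver 1, -0.20 on brain 2, 0.27 on liver 2, 0.73 on brain 1 and 0.59 to 3.50 on the 12 others. Nfix, a nuclear factor I gene, had 2 low islands, the longer with 0.12 on liver 1, -0.14 on brain 2, 2.48 on liver 2, 1.61 on brain 1 and 0.38 to 2.00 on the 12 others.

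Gfi1, a repressor of blood cell development, scored -0.38 on liver 1, -0.43 on brain 2, 0.44 on liver 2, 0.71 on brain 1 and 0.77 to 3.32 on the 12 others. Runx1, a factor of blood stem cells, scored -0.55 on liver 1, -0.19 on brain 2, 0.16 on liver 2, 0.32 on brain 1 and 0.28 to 3.33 on the 12 others. Both genes had liver 2 and brain 1 between the low pair and the bulk of the tissues or within their range. Slc26a1, a sulfate transporter, had a promoter island at 0.08 on liver 1 and 0.04 on brain 2, against 2.39 on liver 2, 2.37 on brain 1 and 0.93 to 2.73 on the 12 others. Icam5, a neuronal adhesion molecule, scored 0.29 on liver 1, 0.43 on brain 2, 2.13 on liver 2, 1.71 on brain 1 and 1.10 to 2.51 on the 12 others. Rbmxl2, a germ cell RNA-binding gene, was an exception, since liver 1 scored 0.74, brain 2 scored 3.27, liver 2 scored 2.59 and brain 1 scored 2.03, so that liver 1 alone was low.

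The Hox genes, a list chosen after the values were seen, had 67 islands of 41 genes. Liver 1 was the lowest of the replicate 1 arrays at 20 of these (29.9%, against 14.8% of all islands) and brain 2 the lowest of the replicate 2 arrays at 27 (40.3%, against 17.4%). Liver 2 was the lowest at 7 (10.4%, against 14.4%), and brain 1 at 18 (26.9%, against 18.8%). Liver 1 was lower by over 0.75 at 5 of the 67 islands (0.555% of all islands were) and liver 2 at 0. None passed the limma test (0 islands), and 6 had an unadjusted p under 0.05 (3.06% of all islands had).

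The islands high on liver 1, 0.412% of all islands, included 0 of the 9 islands of the neuronal marker list and 0 of the 15 of the endothelial and stellate list. Pax6, a paired box factor of eye, brain and pancreas, had an island inside the gene at chromosome 2, 105482349 to 105483309. Liver 1 scored 1.57 and brain 2 scored 0.99 there, against -0.36 on liver 2, -0.96 on brain 1 and -1.07 to -0.29 (median -0.72) on the 12 others. A promoter island of Pax6 scored 0.83 on liver 1, 0.50 on brain 2, -0.92 on liver 2, -1.13 on brain 1 and -0.99 to 0.30 on the 12 others. Liver 1 and brain 2 were above all other adult arrays at both, though islands high on liver 1 were chosen for standing above the other replicate 1 arrays. Nrxn2, a neurexin of the synapse, scored 1.32 on liver 1, 2.20 on brain 2, -0.41 on liver 2, -0.14 on brain 1 and -0.54 to 0.16 on the 12 others. Cbln1, a secreted organiser of synapses, scored 1.33 on liver 1, 1.12 on brain 2, -0.18 on liver 2, -0.39 on brain 1 and -0.61 to 0.35 on the 12 others. Gfap, the intermediate filament of astrocytes, scored 1.33 on liver 1, 0.68 on brain 2, -0.23 on liver 2, -0.18 on brain 1 and -0.34 to 0.65 on the 12 others. Cyp46a1, the cholesterol 24-hydroxylase of neurons, scored 2.10 on liver 1, 2.69 on brain 2, -0.18 on liver 2, 0.51 on brain 1 and -0.31 to 1.16 on the 12 others.

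A few more of the islands high on liver 1 follow. Thbd, the thrombin receptor thrombomodulin, scored 2.07 on liver 1, 0.92 on brain 2, -0.01 on liver 2, -0.13 on brain 1 and -0.28 to 0.44 on the 12 others. Plvap, a protein of endothelial fenestrae, scored 3.11 on liver 1, 2.69 on brain 2, 1.55 on liver 2, 1.98 on brain 1 and 0.05 to 2.25 on the 12 others. Zfp36, which promotes decay of inflammatory mRNAs, had 10 probes reaching from -159 bases into the gene, over the promoter printed near the opening. It scored 0.95 on liver 1, 0.92 on brain 2, -0.30 on liver 2, -0.48 on brain 1 and -0.79 to -0.29 on the 12 others. Zfp36 was also methylated on the 5 embryo arrays, at 0.80 to 0.92. Kirrel2, an adhesion protein, differed, with 0.95 on liver 1 and 0.27 on liver 2 above brain 2 at -0.22, brain 1 at -0.40 and the 12 others at -0.49 to 0.22.

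The islands high on liver 2 come next. Gata4, a zinc finger factor of heart, gut and liver endothelium, had an island inside the gene at chromosome 14, 62194744 to 62195308. Liver 2 scored 3.08 and brain 1 scored 2.42 there, against 0.33 on liver 1, 0.12 on brain 2 and 0.00 to 0.92 (median 0.41) on the 12 others. Tbx3, a T-box factor of the liver bud, scored 3.10 on liver 2, 2.62 on brain 1, -0.04 on liver 1, 0.37 on brain 2 and 0.48 to 2.74 on the 12 others. At Tbx3 liver 2 was above the 12 others, brain 1 within their range, and liver 1 and brain 2 below them. Islands high on liver 2 were chosen for standing above the other replicate 2 arrays. Nr5a2, the nuclear receptor LRH-1 of bile acid synthesis and of pancreas, scored 1.01 on liver 2, 0.95 on brain 1, -0.70 on liver 1, -0.26 on brain 2 and -0.86 to 0.13 on the 12 others.

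Bdh1, an enzyme of ketone bodies, had an island of 12 probes from -123 to 1258 bases around its start. Liver 2 scored 2.46 and brain 1 scored 2.11, against -0.11 on liver 1, -0.50 on brain 2 and -0.53 to -0.06 on the 12 others. Bcat2, which starts breakdown of branched-chain amino acids outside hepatocytes, scored 2.11 on liver 2, 1.68 on brain 1, -0.41 on liver 1, -0.30 on brain 2 and -0.45 to 0.21 on the 12 others. Abcg5, a sterol exporter of liver and gut, scored 1.58 on liver 2, 2.01 on brain 1, 0.41 on liver 1, -0.07 on brain 2 and -0.29 to 1.38 on the 12 others. Gpam, which starts glycerolipid synthesis, scored 0.48 on liver 2, -0.05 on brain 1, -0.38 on liver 1, -0.89 on brain 2 and -1.01 to -0.34 on the 12 others. F12, coagulation factor XII, scored 2.81 on liver 2, 2.86 on brain 1, 1.59 on liver 1, 1.17 on brain 2 and 0.86 to 1.79 on the 12 others. Adra1b, the alpha-1B adrenergic receptor, had a promoter island at 2.28 on liver 2, 2.49 on brain 1, -0.43 on liver 1, -0.28 on brain 2 and -0.35 to 0.83 on the 12 others. At these genes liver 2 and brain 1 were higher than liver 1, brain 2 and the 12 others. The choice itself set liver 2 above the other replicate 2 arrays, brain 2 included.

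Zmiz1, a coactivator gene, showed a wide gap of liver 2 to its own replicate, with 3.04 on liver 2, 2.68 on brain 1, -0.16 on liver 1, -0.27 on brain 2 and -0.37 to -0.01 on the 12 others. In the other direction, Apoe, the apolipoprotein of remnant particles, scored 1.20 on liver 2 and 1.18 on brain 1, against 2.60 on liver 1, 3.01 on brain 2 and 2.49 to 3.44 on the 12 others. Cpox, an enzyme of heme synthesis, scored 0.46 on liver 2 and 1.32 on brain 1, against 1.68 on liver 1, 1.72 on brain 2 and 1.48 to 2.36 on the 12 others. Liver 2 was below the 12 others at both genes, though the choice itself set it below the other replicate 2 arrays. Liver 1 was within the range of the 12 others.

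**Figure D5:**
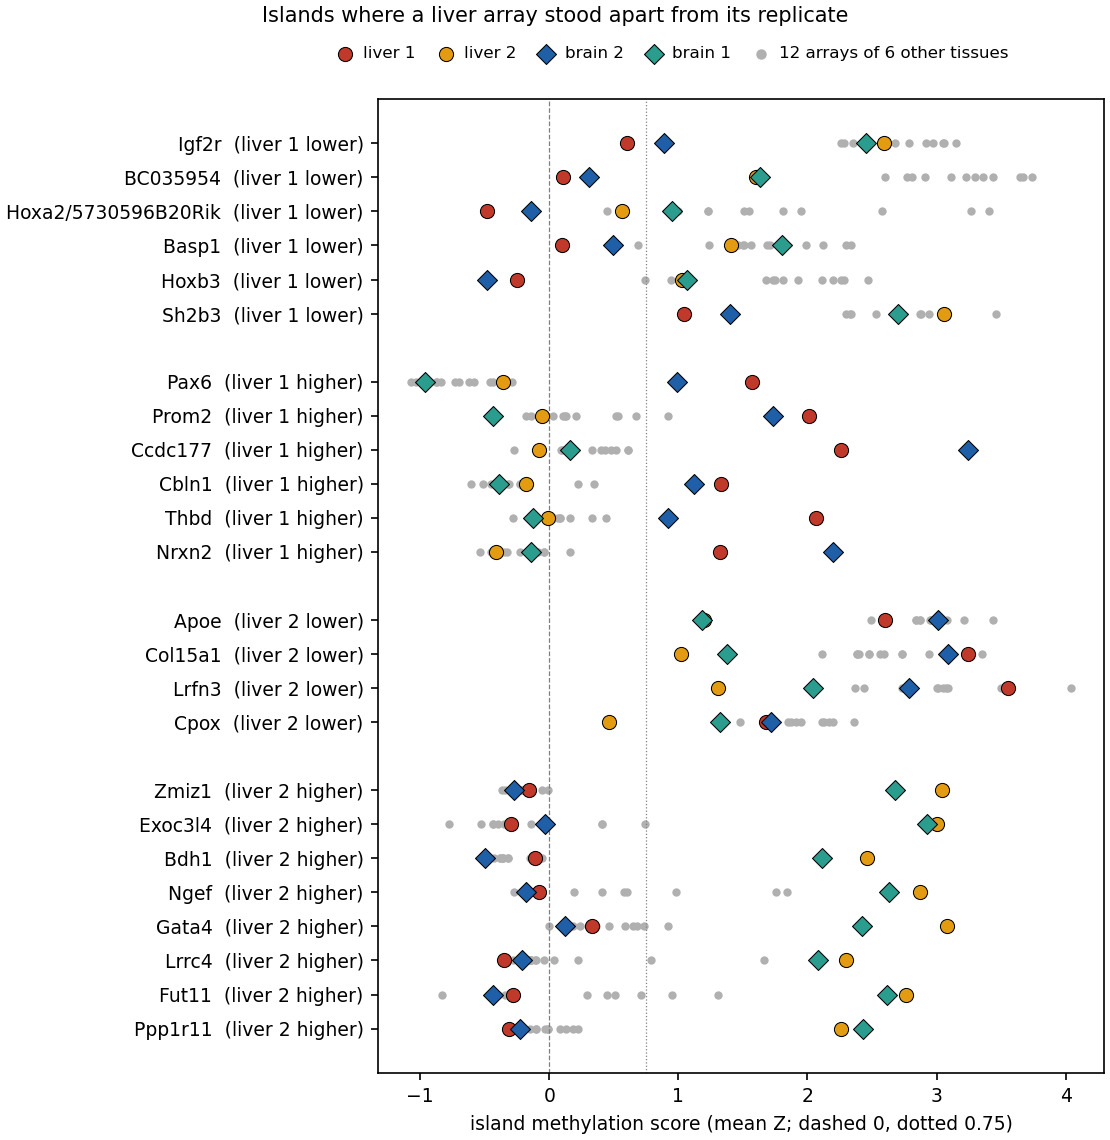
IMS of the 16 adult arrays at 24 islands with wide gaps in the 4 sets chosen on a liver array, a gene each. Circles are the liver arrays, diamonds the brain arrays and grey points the 12 arrays of the other 6 tissues. At Igf2r, for example, liver 1 (0.60) and brain 2 (0.89) lie below all other arrays, with liver 2 (2.59) and brain 1 (2.45) among the 12 others.

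By the array's annotation, of the 74 islands low on liver 1, 75.7% were inside genes, against 61.7% of all islands, and 9.46% were at promoters, against 18.9%. For the 77 islands high on liver 2 the shares were 71.4% and 10.4%, and for the 10 low on liver 2 they were 80.0% and 0%. The 55 islands high on liver 1 had 60.0% inside genes, near the share of all islands, and 14.5% at promoters. On the 5 embryo arrays, which took no part in the choice, the median IMS of the islands low on liver 1 was 0.49 to 1.09. The medians were -0.13 to 0.08 for the islands high on liver 1 and -0.08 to 0.11 for those high on liver 2. For the 10 islands low on liver 2 they were 2.29 to 2.84. On the 5 arrays of differentiated ES cells (embryoid bodies, retinoic acid, endoderm and mesoderm), the medians ran from 0.87 to 1.42 at the islands low on liver 1, from 0.54 to 1.04 at those high on liver 1, from 1.61 to 2.15 at those low on liver 2 and from 0.33 to 0.87 at those high on liver 2.

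Lists of liver genes gave no island that passed the limma test, and their medians lay near the 0.007 of all islands. Liver transcription factors (27 of 32 genes with an island, 47 islands) had a median difference of 0.022, plasma proteins, complement and coagulation (10 islands) -0.087, and metabolism of bile acid, cholesterol and lipid (22 islands) 0.055. Metabolism of glucose, amino acid and urea (20 islands) had 0.028, xenobiotic and retinoid metabolism (18 islands) 0.047 and growth and endocrine signalling of hepatocytes (29 islands) -0.02. Liver 2 exceeded the other 5 arrays of its number by over 0.75 at 3 islands of the transcription factors (Gata4, Nr5a2 and Tbx3), at 1 of the plasma proteins (F12) at 2 of the lipid genes (Abcg5 and Gpam) and at 1 of the growth and endocrine genes (Tbx3 again), against 0.577% of all islands. Brain 1 did so within its own number at 3, 1, 1 and 0 islands of these lists, against 0.592% of all islands. Liver 2 was lower by that gap at Apoe among the plasma proteins, against 0.075% of all islands. Liver 1 was higher by it at 0 islands of each list, against 0.412% of all islands. It was lower at 1 island of the transcription factors, in Gata6, against 0.555% of all islands.

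Markers of the cells that a piece of liver or another organ holds gave 0 calls as well. The median difference was 0.127 over 3 islands of hepatocyte markers, 0.191 over 9 of bile duct markers, -0.113 over 22 of blood and immune markers and -0.043 over 15 of endothelial and stellate markers. It was -0.037 over 9 islands of neuronal markers, 0.024 over 7 of skeletal muscle markers and -0.027 over 35 of the identity genes of lung, kidney, colon and pancreas. Each liver array was also set against the mean of the other 5 of its number. The medians on liver 1 and liver 2 were then 0.393 and -0.104 for hepatocyte markers and 0.1 and -0.094 for endothelial and stellate markers. For bile duct markers they were 0.074 and 0.031, and for blood and immune markers -0.166 and -0.114. Runx1 was the marker island at which liver 1 was lower by over 0.75 (0.555% of all islands were). Neither liver array passed that gap at any island of the neuronal markers.

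Against single tissues, the arrays labelled liver differed from those of colon and pancreas, the tissues whose own pairs matched. Liver was lower than colon at 28 islands (0.21%) and higher at 0 (372 higher at an unadjusted p under 0.05), and lower than pancreas at 4 (0.03%) and higher at 1 (0.0075%). Against brain, kidney, lung, muscle and spleen 0 islands each were called, with 199, 376, 440, 224 and 488 at an unadjusted p under 0.05. Since liver 1 was most like brain 2 and liver 2 most like brain 1, 0 calls against brain cannot show that these tissues are alike. The arrays of kidney, lung, muscle and spleen were not nearest to their own label either, and the spread within labels enters every contrast. These 7 contrasts share the liver arrays. The count against colon fell to between 6 and 11 when any of the 4 arrays was left out, and the lower count against pancreas to 1.

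Foxa2, a forkhead factor of liver, gut and floor plate, was among the islands lower in liver than in colon, with 2 islands. The island downstream of the gene (chromosome 2, 147729981 to 147730373) scored -0.55 on liver 1 and -0.54 on liver 2, and 1.95 and 1.89 on the colon arrays, a difference of -2.46 ± 0.15 (limma adjusted p = 1.5e-05). The island inside Foxa2 scored -0.32 and -0.45 on the liver arrays and 0.66 and 0.57 on the colon arrays. Pitx1, a homeobox factor of the hindlimb, scored -0.31 and -0.21 on the liver arrays and 2.72 and 2.43 on colon, a difference of -2.83 ± 0.38 (limma adjusted p = 0.0085). Pax8, a paired box factor of kidney and thyroid, scored 0.26 and -0.33 on the liver arrays and 2.88 and 2.31 on colon. A promoter island of Gata4 scored -0.59 and 0.30 on the liver arrays and 1.41 and 2.08 on colon. In each the 2 liver arrays were below both colon arrays, and brain 1 and brain 2 were below both colon arrays too. At Pitx1 the 14 other adult arrays had a lowest value of -0.39 and a median of 0.03. At the promoter island of Gata4 these were -0.76 and -0.36. The liver arrays lay within the range of the 14 others at both, and a colon array was the highest.

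Mnx1, Gpx7 and Ephb2 were lower in liver than in either colon or pancreas. A contrast of 2 tissues does not by itself show which of them stood apart from the rest. Mnx1, a homeobox factor of motor neurons and early pancreas, scored 0.07 and 0.09 on the liver arrays, 2.66 and 2.01 on colon and 2.62 and 2.79 on pancreas. Gpx7, a glutathione peroxidase family member, scored -0.50 and -0.52 on the liver arrays, 0.60 and 0.77 on colon and 1.74 and 1.83 on pancreas. Lhx3, a LIM factor of pituitary and motor neurons, scored -0.23 and -0.29 on the liver arrays and 1.54 and 1.49 on pancreas. Phospho1, a phosphatase of mineralising bone, was the island higher in liver than in pancreas. It scored 2.07 and 1.97 on the liver arrays and -0.13 and 0.02 on pancreas, a difference of 2.07 ± 0.30 (limma adjusted p = 0.036). The arrays of the 6 other tissues ran from 0.60 on kidney 1 to 2.99 on brain 2. The liver arrays lay among them and the pancreas arrays below them all. The count higher in liver than in pancreas fell to 0 without any of the 4 arrays of liver and pancreas, and with the replicate number as a block, so this call was lost in each of these fits.

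Islands were called in fits that left out arrays labelled liver and brain, or the arrays of a replicate number, with the other labels kept as given. Without liver 2 and brain 2, liver 1 differed from the mean of the other 7 tissues at 5 lower and 11 higher islands, and without liver 1 and brain 1, liver 2 differed at 2 lower and 40 higher. With the replicate 1 arrays of the 6 tissues and both arrays of colon and pancreas, 231 islands were lower and 115 higher on liver 1, and with the replicate 2 arrays 65 were lower and 127 higher on liver 2. In these last fits each lone array is assumed to vary like the arrays of colon and pancreas, whose pairs each shared sex and grid version. All 4 fits were chosen after the data were seen, and they describe the array that carries a label, not the tissue. Each of them also left out the brain array most like the liver array that was kept, so the choice itself favoured calls.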

How the data were processed

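Genomic DNA enriched by mDIP (Cy5) and input DNA (Cy3) were hybridised to Agilent mouse CpG island arrays. The deposited log10 ratios of red over green were computed by the authors with Agilent's feature extraction, with background subtraction and linear normalisation, and the deposited intensity columns are the authors' scanner signals per channel. A deposited table of scores, the authors' Z-scores by probe melting temperature, served as an alternative. From the scanner files, control and flagged probes were removed, log ratios were turned into Z-scores per array over the 88737 probes common to both grids, and probes were joined into 13336 autosomal islands (gaps up to 500 bases, at least 3 probes, median 5). Positions are as in the files, which name no build. Of 11383 gene names, 8876 were current RefSeq symbols, 2219 matched a synonym and 288 matched none.

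Liver was compared with the mean of the other 7 tissues by limma 3.58.1 in R 4.3.3 over 16 arrays (group means, eBayes, Benjamini-Hochberg), and with each tissue in the same fit. Islands, counts and correlations were computed in Python 3.11.15 (pandas 2.3.3, numpy 2.4.6). The fit was tested on simulated data. The rule for named genes took islands past that limma test (0), islands crossing the limits of 0 and 0.75 in all tissues (0) and, as a check of the label, Hnf4a, Alb, Apoa1, G6pc, Foxa3 and Cebpa, of which the last pair had islands. A further item of that check is not reported here. Genes named in the contrasts with colon and pancreas, and every other island named, were chosen after their values were seen. The islands, members and gene lists were chosen with earlier results of these data known. The difference of replicate 1 minus replicate 2 was correlated between tissues. Over 28 tissue pairs these correlations ran from -0.32 to 0.46 (median 0.05, 11 over 0.1), so the numbers were not taken to pair samples. This does not show that the numbers carry no batch, since they coincide with grid version in the 6 tissues other than colon and pancreas. Alternatives covered the Z-score, the log2 scale, normexp (offset 50), the deposited table, bright probes, island rules, blocks for replicate, sex, slide and scan day, and arrays or tissues left out. The number of arrays limits the precision, and the labels do not say that replicates are separate animals, so p-values may measure technical spread.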

Additional observations from a re-analysis of the deposited data

How the results depend on the processing

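In the limma test of liver against the mean of the other 7 tissues, 0 islands were called under each of 10 other ways of scoring (206 to 646 at an unadjusted p under 0.05), 7 other models (394 to 567), and with any array (320 to 600) or tissue (299 to 557) left out. With the replicate block it called 0 (427 at an unadjusted p under 0.05), and fixed blocks for slide and scan day could not be fitted. In fits chosen after the data were seen, the lower and higher counts were 5 and 11 without liver 2 and brain 2, 2 and 40 without liver 1 and brain 1, 231 and 115 with the replicate 1 arrays plus colon and pancreas, and 65 and 127 with the replicate 2 arrays plus these. Islands with both liver arrays below all others numbered 10 in the deposited table, 15 with normexp, 71 by the median of probes and 22 with at least 5 probes. Those above numbered 29 on the log2 scale, 94 with normexp and 23 with at least 5 probes. Leaving out an array gave 44 to 835 below and 47 to 981 above, the highest without liver 1 (835 and 981) and without liver 2 (785 and 778), which leave a lone liver array to pass. Without brain 1 there were 73 and 73, and without brain 2 there were 81 below. Leaving out a tissue gave 49 to 121 below (brain 121, lung 74, muscle 65) and 52 to 101 above (brain 101, colon 68, lung 75). Islands crossing both limits in all tissues numbered 0 to 4 and 0 to 5 without an array (4 and 5 without liver 2, and 2 of the second kind without liver 1), and 0 to 1 and 0 without a tissue (1 without brain). Islands lower in liver than colon numbered 6 to 11 without an array (liver 1 out 9, liver 2 out 11, colon 1 out 6, colon 2 out 7) and 30 with the replicate block, and lower than pancreas 1 without any of the 4 arrays and 3 with the block. The 1 island higher than in pancreas was lost in each of these fits (0). Islands low on liver 1 numbered 119 with a median and MAD Z-score, 45 in the deposited table, 382 with normexp, 43 with at least 5 probes, 135 at a gap of 0.5 and 33 at 1. Those high on liver 1 numbered 95, 22, 171, 21, 125 and 25 in the same order, 30 on the log2 scale and 23 over bright probes. Islands low on liver 2 numbered 42, 4, 4, 5, 38 and 5 in that order, 19 on the log2 scale, 5 over bright probes and 20 by the median of probes, and those high on liver 2 numbered 42 with at least 5 probes and 128 at a gap of 0.5. The difference at Foxa3 turned to -0.01 with normexp and -0.03 without liver replicate 1, and at Cebpa to -0.0049 over bright probes and -0.02 without liver replicate 1. With any array left out it ran from -0.03 to 0.57 at Foxa3 and from -0.02 to 0.13 at Cebpa, highest without liver replicate 2. The cause of these changes was not tested. Of the other values, 217 counts and 73 differences kept their size or direction. On liver 2 the input was well above background at 64.0% of the probes, which limits what this array can show.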
